A study of Mus musculus with 12 samples.

Results

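Mouse livers of 7 weeks were set against mouse livers of 3 weeks by their microRNA content. The members are 6 of the 12 samples of the series, chosen by their titles: the 3 livers titled as 7 weeks and the 3 titled as 3 weeks. Both groups were male C57Bl/6 mice, unmodified and untreated as far as the labels say, so strain and sex are shared and age is the labelled difference. The other 6 samples, 3 livers of 2 weeks (male) and 3 of e15.5 (embryonic day 15.5, mixed sex), entered the estimate of the spread. Total RNA of whole liver was measured with a nanoString nCounter mouse miRNA assay, in which barcoded probes bound to miRNAs are counted without amplification, and 355 mouse probes were analysed. The labels number the mice within each age but name no litter, cage or assay batch, and they do not say whether same-numbered mice were related, so the p-values measure the spread between these livers. In a whole organ, fewer cells of a type and less RNA per cell cannot be told apart.

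A microRNA is a short RNA, cut from a hairpin precursor, that guides an Argonaute protein to messenger RNAs and lowers their stability or translation. Pairing rests mainly on the seed, bases 2 to 8 from the 5′ end, and miRNAs with the same seed form a family with overlapping targets. In the mouse, the weeks around weaning are the time when hepatocytes leave the proliferative state of the growing liver, take up a diet rich in carbohydrate and become binucleate and polyploid. miR-122, the most abundant miRNA of hepatocytes and the subject named in the series title, is known for its part in cholesterol metabolism and hepatocyte differentiation.

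The mature sequences of the miRNAs on which the comparison turned are printed below 5′ to 3′, with the seed in capitals. They are RefSeq's, on GRCm38.p6. A probe named without an arm was matched to the arm that carried the plain name in earlier miRNA releases. Of the 130 probes above the floor in all 6 livers, 98 were matched to a sequence. The miR-17 family members that were lower at 7 weeks share the seed AAAGUGC.
miR-17: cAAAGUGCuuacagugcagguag
miR-20a: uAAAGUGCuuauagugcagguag
miR-93: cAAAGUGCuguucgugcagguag
miR-106b: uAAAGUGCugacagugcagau

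miR-93 lies at chr5:138165574-138165596 (- strand) and miR-106b at chr5:138165787-138165807 (- strand), and miR-25, from the same cluster, carries a different seed. miR-17 lies at chr14:115043684-115043706 (+ strand) and miR-20a at chr14:115044183-115044205 (+ strand). The next pair, also lower at 7 weeks, has the seed AGUGCAA, and it is shown because its letters overlap those of the miR-17 seed.
miR-130a: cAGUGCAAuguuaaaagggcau
miR-301a: cAGUGCAAuaguauugucaaagc

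miR-130a lies at chr2:84741116-84741137 (- strand) and miR-301a at chr11:87113054-87113076 (+ strand). The miR-29 family, whose values rose relative to the other probes, has the seed AGCACCA, and its members differ only behind the seed.
miR-29a: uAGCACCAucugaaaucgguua
miR-29b: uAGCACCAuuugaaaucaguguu
miR-29c: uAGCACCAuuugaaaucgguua

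miR-29a lies at chr6:31062673-31062694 (- strand) beside a copy of miR-29b at chr6:31063025-31063047 (- strand). The other miR-29b copy, at chr1:195037091-195037113 (+ strand), lies beside miR-29c at chr1:195037600-195037621 (+ strand). miR-802 lies at chr16:93369737-93369758 (+ strand), miR-335-5p at chr6:30741314-30741336 (+ strand) and miR-144 at chr11:78073047-78073066 (+ strand). Among the probes above the floor in all 6 livers, these had the largest falls by the rule given below. miR-451, at chr11:78073186-78073207 (+ strand), shares the primary transcript of miR-144.
miR-802: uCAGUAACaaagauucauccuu
miR-335-5p: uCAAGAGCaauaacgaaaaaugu
miR-144: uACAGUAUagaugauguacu
miR-451: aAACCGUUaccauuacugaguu

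The last sets are a pair of paralogs, miR-99b at chr17:17830194-17830215 (+ strand) and miR-99a at chr16:77598940-77598961 (+ strand), which have the same seed and did not keep a constant ratio, and 3 miRNAs that went to or near the floor: miR-136 at chr12:109595331-109595352 (+ strand), miR-377 at chr12:109740553-109740574 (+ strand) and miR-429 at chr4:156053916-156053937 (- strand).
miR-99b: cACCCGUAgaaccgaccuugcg
miR-99a: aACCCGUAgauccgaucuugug
miR-136: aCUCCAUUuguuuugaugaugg
miR-377: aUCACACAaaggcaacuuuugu
miR-429: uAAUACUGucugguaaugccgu

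The deposited values are log2 values with a lowest value of -9.97 in every sample, which is log2 of 0.001 and is called the floor here. The sum of the linear values was 490045, 478381 and 539127 in the 3-week livers and 236867, 244606 and 267915 in the 7-week livers. Every 7-week total was thus below every 3-week total. The mean of the 100 brightest probes changed by -1.12 (log2) from 3 to 7 weeks, with 90 of the 100 negative, and the median change of the 130 probes above the floor in all 6 livers was -1.10, with 112 negative. Of the 100, 99 were above the floor in all 6 livers, so floor values entered that mean and the centring described below. The cause of this common shift was not tested: the scaling between samples is not given in the available labels, and the depth is unknown. Each change is therefore given on 2 scales: as deposited, and after centring each sample on the mean of its 100 brightest probes, which sets a change against that of the other abundant miRNAs. A probe above the floor in all 6 livers was said to rise or fall when limma's moderated test, adjusted by Benjamini-Hochberg over the 355 probes, gave a p under 0.05 in the same direction on both scales. Between 159 and 168 probes were above the floor in the 3-week livers, and 226, 248 and 173 in 7-week mice 1, 2 and 3. 7-week mouse 3 thus stood apart from the other 7-week livers by its many floor values. Across the 130 probes the log2 values of pairs of livers correlated at 0.987 to 0.988 within 3 weeks, 0.978 to 0.992 within 7 weeks and 0.937 to 0.954 between the ages, as a description of probes measured in the same samples.

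Of all 355 probes, 147 (41.4%) passed the test as deposited, 42 (11.8%) higher and 105 (29.6%) lower at 7 weeks. Among the 130 probes, 86 (66.2%) passed as deposited, 3 (2.31%) higher and 83 (63.8%) lower, and after centring 40 (30.8%) passed, 23 (17.7%) higher and 17 (13.1%) lower. On both scales 3 (2.31%) rose and 17 (13.1%) fell, 20 (15.4%) in all. The 2 ages did not overlap as deposited for 107 of the 130 probes (82.3%), 5 higher (3.85%) and 102 lower (78.5%), and after centring for 74 (56.9%), 43 higher (33.1%) and 31 lower (23.8%). A list's count of lower probes as deposited is thus to be read against 63.8%, and its centred counts against 17.7% and 13.1%. Without 7-week mouse 3 the counts on both scales were 1 and 22, and the count of all probes higher as deposited was 69 in place of 42. The 3 that rose were miR-29b, miR-29c and miR-34c. The 10 largest falls, by centred change, were miR-802, miR-335-5p, miR-144, miR-301a, miR-532-5p, miR-93, miR-434-3p, miR-106b, miR-130a and miR-340-5p. The other 7 that fell were the combined probe for miR-106a and miR-17, the combined probe for miR-20a and miR-20b, let-7e, let-7i, miR-99b, miR-15b and miR-152.

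**Figure D1:**
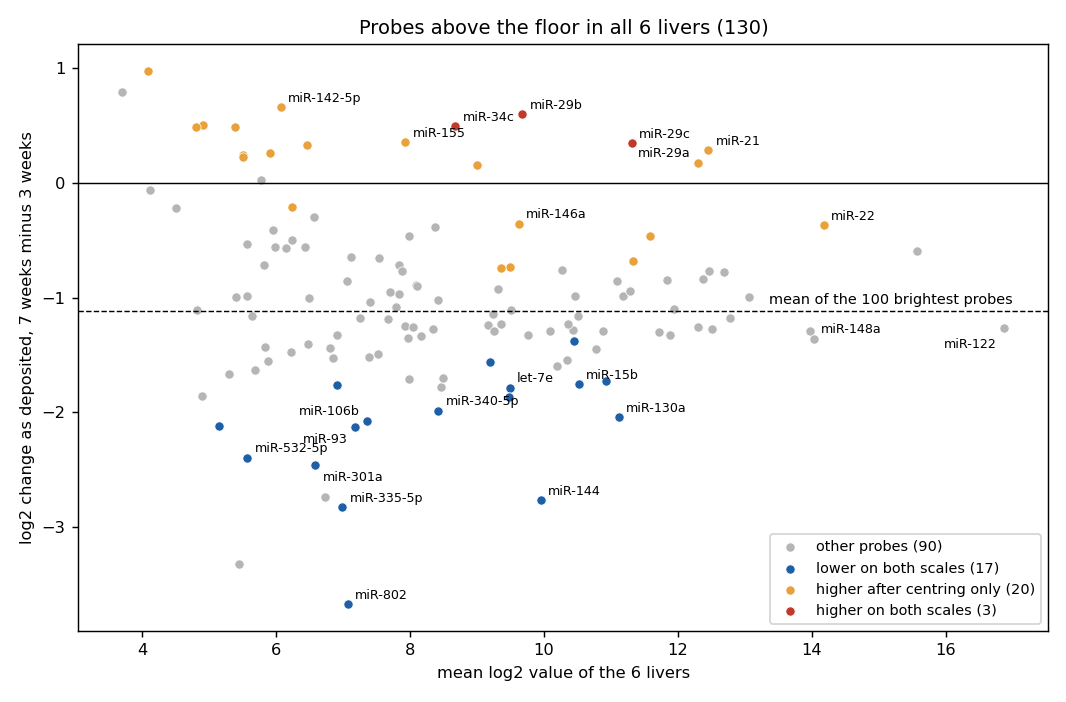
Change of each of the 130 probes above the floor in all 6 livers (vertical axis, log2 change as deposited, 7 weeks minus 3 weeks) against its mean log2 value in the 6 livers (horizontal axis). Each point is a probe, the dashed line is the mean change of the 100 brightest probes (-1.12), and colours mark the calls; 17 probes fell and 3 rose on both scales, and most points lie near the dashed line rather than near 0.

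miR-122 stayed the brightest probe, and its deposited level was lower at 7 weeks by about as much as the other bright probes. Its log2 values were 17.40, 17.49 and 17.63 in the 3-week livers and 16.13, 16.24 and 16.34 in the 7-week livers. The groups did not overlap as deposited, and did overlap after centring. The mean was 17.51 ± 0.12 (SD, n = 3) at 3 weeks and 16.24 ± 0.10 (SD, n = 3) at 7 weeks, a change of -1.27 as deposited (SE 0.19, adjusted p = 0.000287) and -0.15 after centring (SE 0.17, adjusted p = 0.557). An exact two-sided permutation test of the deposited values over the 6 livers gave p = 0.1, the smallest value that 3 against 3 allows. miR-122 made up 37.1 ± 1.7% (SD, n = 3) of the summed linear signal at 3 weeks and 31.0 ± 0.65% (SD, n = 3) at 7 weeks.

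Of the 11 hepatocyte-enriched miRNAs measured, all above the floor in the 6 livers, 7 were lower as deposited, and after centring 2 were higher and 1 lower. The 7 became 4 without 3-week mouse 3 or 7-week mouse 1. Their median change was -0.76 as deposited and 0.36 after centring, against -1.10 and 0.02 over the 130 probes. The largest change of the list was that of miR-802, a miRNA that in mouse liver is known to rise with obesity and to bear on insulin signalling. Its values were 8.99, 8.88 and 8.85 in the 3-week livers and 5.20, 5.30 and 5.21 in the 7-week livers, and it was on the floor in each e15.5 liver. No 7-week liver came near a 3-week liver. The change was -3.67 as deposited (SE 0.34, adjusted p = 1.05e-05) and -2.55 after centring (SE 0.38, adjusted p = 0.000598). At 2 weeks its mean was 7.79 ± 0.54, so that after centring 3 weeks exceeded 2 weeks by 1.48 (adjusted p = 0.0275) and 7 weeks was below 3 weeks. The 7-week level after centring differed from the 2-week level by -1.07 (adjusted p = 0.0564), which missed the threshold. Of the 129 probes above the floor in all livers of 2, 3 and 7 weeks, 20 (15.5%) passed after centring from 2 to 3 weeks and 57 (44.2%) from 2 to 7 weeks, and these comparisons share livers with that of 3 and 7 weeks.

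miR-22, a miRNA of liver and heart that is abundant in hepatocytes, went the other way relative to the bright probes. It read 14.37, 14.28 and 14.45 in the 3-week livers and 13.86, 13.95 and 14.18 in the 7-week livers. Its deposited values were all lower at 7 weeks, and its centred values were all higher. The change was -0.37 as deposited (SE 0.13, adjusted p = 0.0493) and 0.75 after centring (SE 0.12, adjusted p = 0.000821), so its direction depends on the scale, and the deposited call was lost in 9 of the 12 fits that left out 1 sample. miR-192, which is expressed in liver, gut and kidney and whose gene adjoins a miR-194 gene, behaved alike, with -0.68 as deposited (adjusted p = 0.0127) and 0.44 after centring (adjusted p = 0.0454), and this centred call was lost in 8 of those 12 fits. miR-194 changed by -1.10 as deposited (adjusted p = 0.000287) and 0.02 after centring (adjusted p = 0.875). miR-148a, which bears on LDL receptor levels in hepatocytes, read 14.69, 14.78 and 14.65 in the 3-week livers and 13.40, 13.23 and 13.41 in the 7-week livers, a change of -1.36 as deposited (adjusted p = 5.17e-05) and -0.24 after centring (adjusted p = 0.377). Its deposited change, like that of miR-122, was close to the -1.12 of the bright probes. For miR-365 the change was -0.38 as deposited (adjusted p = 0.327) and 0.73 after centring (adjusted p = 0.0619), for miR-193b -0.77 as deposited (adjusted p = 0.0408) and 0.35 after centring (adjusted p = 0.365) and for miR-193 -0.56 as deposited (adjusted p = 0.499) and 0.56 after centring (adjusted p = 0.475). The deposited call of miR-193b was lost in 7 of the 12 fits without a sample. miR-101a changed by -0.50 as deposited (adjusted p = 0.516) and 0.62 after centring (adjusted p = 0.413) and miR-101b by -0.76 as deposited (adjusted p = 0.139) and 0.36 after centring (adjusted p = 0.525).

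Ratios of 2 probes in the same liver are free of any scaling of the whole sample. The log2 ratio of miR-802 to miR-122 was -8.41, -8.61 and -8.78 at 3 weeks and -10.93, -10.94 and -11.13 at 7 weeks, a change of -2.40 (5.27-fold lower). The ratio of miR-29c to miR-122 went from -6.28, -6.37 and -6.46 to -4.66, -4.81 and -4.80, a change of 1.61 (3.06-fold higher). In neither pair did the ages overlap. By contrast, the ratio of miR-148a to miR-122 was -2.80 ± 0.16 at 3 weeks and -2.89 ± 0.14 at 7 weeks (SD, n = 3), and these overlapped (exact permutation p = 0.5). Of the 7 pairs chosen with the design that could be computed, the other 6 did not overlap between the ages, each with the smallest possible exact two-sided p of 0.1 (0.117 after Benjamini-Hochberg over the 7 pairs), so none could pass 0.05. An eighth pair, with miR-34a, was not analysed here.

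**Figure D2:**
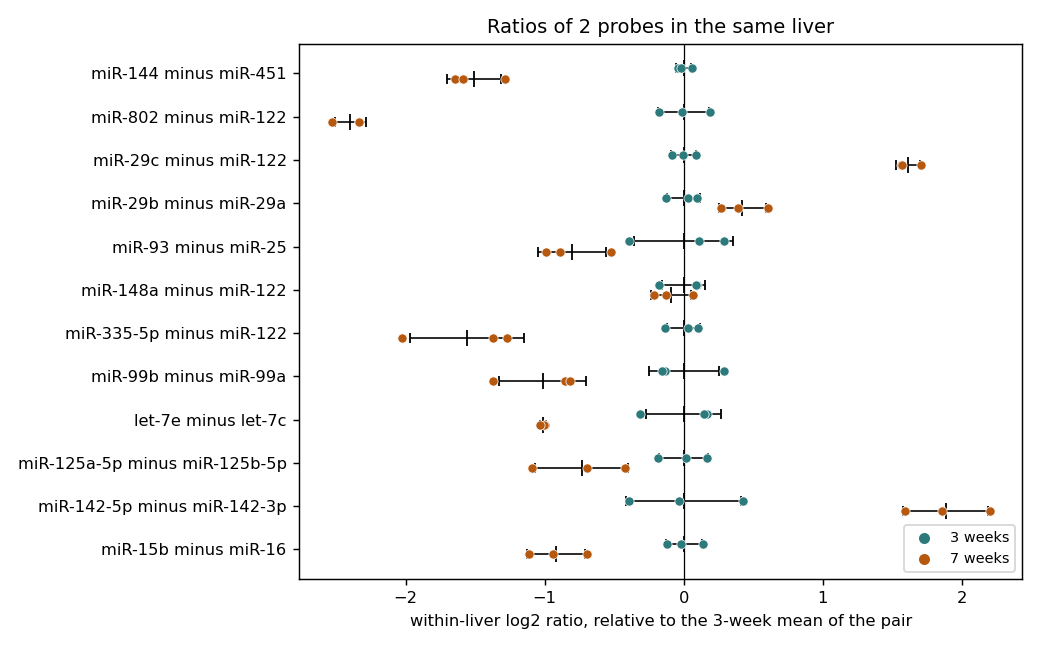
Within-liver log2 ratio of 12 pairs of probes, relative to the 3-week mean of each pair (horizontal axis). Points are livers, vertical ticks are group means and bars are 1 SD (n = 3); the last 5 pairs were chosen after the values were seen. Only the ratio of miR-148a to miR-122 overlapped between 3 and 7 weeks.

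The miR-29 family, which represses collagen genes and DNA methyltransferases, moved up relative to the other probes. All 3 members were higher after centring and 2 were higher on both scales, and the family's median centred change was 1.46, against 0.02 over the 130 probes. miR-29c read 11.11, 11.12 and 11.17 in the 3-week livers and 11.47, 11.43 and 11.54 in the 7-week livers. Its groups did not overlap on either scale, with a change of 0.35 as deposited (SE 0.11, adjusted p = 0.0262) and 1.46 after centring (SE 0.12, adjusted p = 4.49e-06). miR-29b read 9.22, 9.27 and 9.65 in the 3-week livers and 9.82, 10.02 and 10.08 in the 7-week livers, a change of 0.59 as deposited (SE 0.21, adjusted p = 0.0493) and 1.71 after centring (SE 0.21, adjusted p = 0.000138). It too had no overlap on either scale. miR-29a read 12.19, 12.06 and 12.38 in the 3-week livers and 12.38, 12.25 and 12.52 in the 7-week livers. Its deposited groups overlapped and its centred groups did not, with 0.17 as deposited (SE 0.10, adjusted p = 0.193) and 1.29 after centring (SE 0.11, adjusted p = 6.26e-06). The deposited calls rested on few livers: that of miR-29b was lost in 10 of the 12 fits that left out a sample (adjusted p 0.0513 to 0.153), all but those without e15.5 mouse 1 or 3-week mouse 3, and that of miR-29c in 5, those without any 3-week mouse or 7-week mouse 1 or 3 (0.0518 to 0.0763), while the centred calls of all 3 held in all 12. miR-29b and miR-29a, which are also transcribed together, did not keep their ratio, which went from -2.83 ± 0.12 to -2.41 ± 0.17 (SD, n = 3), a change of 0.42. The miR-29b probe would also read the copy beside miR-29c. After centring, miR-29c had already gained 1.14 from 2 to 3 weeks (adjusted p = 7.92e-05), and miR-29b 0.84 (adjusted p = 0.0226).

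miR-34c, a member of the miR-34 family that p53 induces and that restrains the cell cycle, was the third probe higher on both scales. Its values were 8.35, 8.54 and 8.41 in the 3-week livers and 8.88, 8.82 and 9.06 in the 7-week livers. The groups were apart on both scales, with a change of 0.49 as deposited (SE 0.15, adjusted p = 0.0255) and 1.61 after centring (SE 0.21, adjusted p = 0.000234). The deposited call was lost without mouse 1 or 3 of either age (adjusted p 0.0577 to 0.0834). Before that, from 2 to 3 weeks, its centred change was 0.19 (adjusted p = 0.853). miR-34b-5p, made from the same cluster, was on the floor in all 6 livers.

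Another 20 probes were higher after centring only. The brightest of them besides miR-22 was miR-21, a miRNA induced in many growing and injured tissues. It read 12.27, 12.09 and 12.58 in the 3-week livers and 12.21, 12.88 and 12.70 in the 7-week livers. The deposited groups overlapped, the centred groups did not, and the change was 0.28 as deposited (SE 0.28, adjusted p = 0.495) and 1.40 after centring (SE 0.26, adjusted p = 0.00245). miR-155, made by activated leukocytes and macrophages, read 7.88, 7.57 and 7.80 in the 3-week livers and 8.10, 8.16 and 8.05 in the 7-week livers, with 0.35 as deposited (adjusted p = 0.394) and 1.47 after centring (adjusted p = 0.00499). It was higher in every 7-week liver even as deposited. The remaining large centred rises were of dim probes: miR-539 (2.09), miR-130b (1.62), miR-423-3p (1.60), miR-31 (1.60) and, a little brighter, miR-1224 (1.44), and the deposited change of none of these passed the test. The centred call of miR-31 was lost in 8 of the 12 fits without a sample (adjusted p 0.0531 to 0.157) and that of miR-423-3p in 4 (0.0533 to 0.0878). Brightness moved with this result. Of the 27 probes whose mean over the 6 livers was under 64 linear units, 7 were higher and 2 lower after centring, with a median centred change of 0.56. Of the 103 at or over 64 units, 16 were higher and 15 lower, with a median of -0.06. The part of brightness in the centred rises was not tested.

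**Figure D3:**
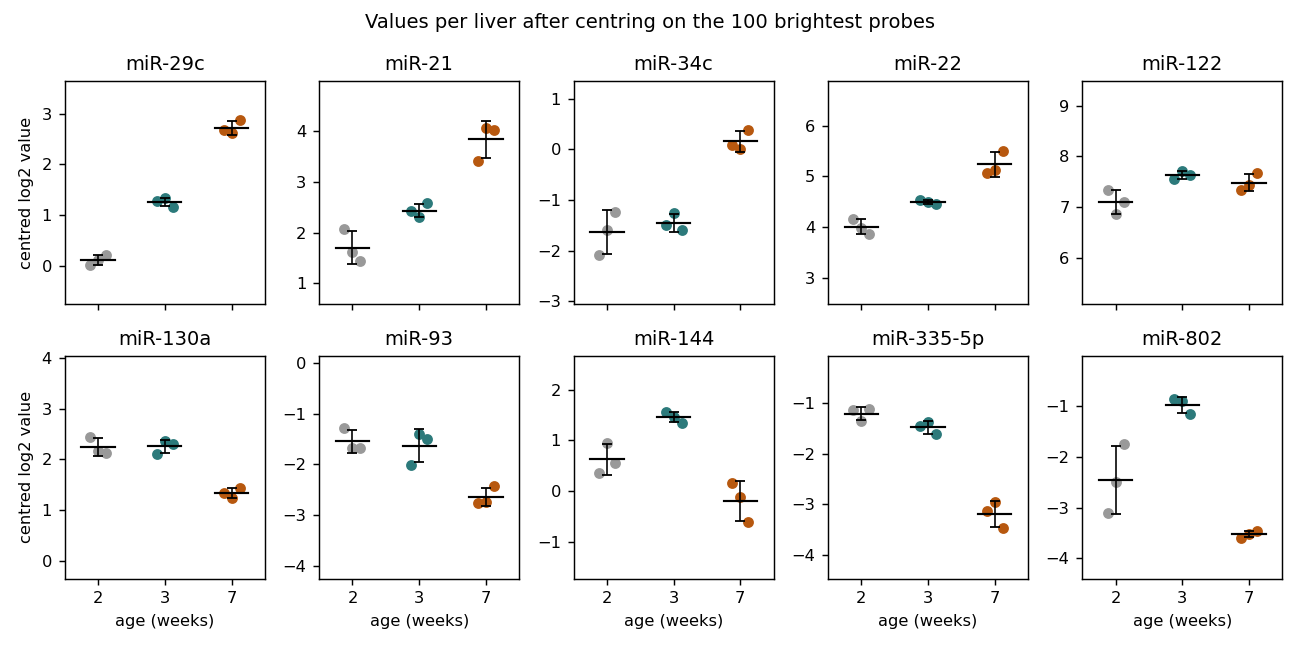
Centred log2 value of 10 miRNAs in each liver of 2, 3 and 7 weeks (vertical axis spanning the same range in every panel). Points are livers, horizontal lines are means and bars are 1 SD (n = 3); the 7-week livers sit above the 3-week livers for miR-29c, miR-21, miR-34c and miR-22 and below them for miR-130a, miR-93, miR-144, miR-335-5p and miR-802, and overlap them for miR-122.

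The miR-17~92 cluster and its paralogs, which promote proliferation by acting on cell cycle inhibitors, were lower at 7 weeks. All 7 probes were lower as deposited, all 7 centred changes were negative and 4 passed on both scales, with a median centred change of -0.61. miR-93 read 7.84, 8.39 and 8.50 in the 3-week livers and 6.03, 6.08 and 6.24 in the 7-week livers, a change of -2.13 as deposited (SE 0.25, adjusted p = 6.47e-05) and -1.01 after centring (SE 0.24, adjusted p = 0.012). miR-106b read 8.24, 8.49 and 8.46 in the 3-week livers and 6.48, 6.18 and 6.31 in the 7-week livers, a change of -2.07 as deposited (SE 0.16, adjusted p = 2.76e-06) and -0.95 after centring (SE 0.17, adjusted p = 0.00198). In both, every 7-week liver was below every 3-week liver on either scale. The combined probe for miR-106a and miR-17 changed by -1.86 as deposited (adjusted p = 1.22e-05) and -0.74 after centring (adjusted p = 0.00615), and that for miR-20a and miR-20b by -1.73 as deposited (adjusted p = 1.68e-07) and -0.61 after centring (adjusted p = 0.00332). A combined probe does not tell its 2 miRNAs apart. The centred call of miR-93 was lost without 3-week mouse 2 (adjusted p = 0.0508).

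The 3 members without the AAAGUGC seed had centred changes of -0.58 to -0.17, none of which passed with all 12 samples. In a fit of the 6 livers alone, miR-19b (adjusted p = 0.0141) and miR-25 (adjusted p = 0.0374) passed after centring, and miR-19a (adjusted p = 0.227) did not. That fit called 53 of the 130 probes after centring (40.8%). The calls thus do not separate these members cleanly from those with the seed. miR-25, the third miRNA of the miR-106b cluster, read 10.41, 10.28 and 10.56 in the 3-week livers and 9.19, 9.15 and 8.94 in the 7-week livers, with -1.32 as deposited (adjusted p = 6.39e-06) and -0.21 after centring (adjusted p = 0.0503). The log2 ratio of miR-93 to miR-25 went from -2.18 ± 0.35 to -2.98 ± 0.24 (SD, n = 3), 1.74-fold lower, without overlap. miR-19a changed by -1.29 as deposited (adjusted p = 4.87e-07) and -0.17 after centring (adjusted p = 0.214) and miR-19b by -1.70 as deposited (adjusted p = 0.00357) and -0.58 after centring (adjusted p = 0.217). After centring, the changes from 2 to 3 weeks of the 4 that fell did not pass the test. They came to -0.09 for miR-93, 0.14 for miR-106b, 0.07 for the miR-106a and miR-17 probe and -0.30 for the miR-20a and miR-20b probe (adjusted p = 0.957, 0.899, 0.957 and 0.157).

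The miR-130 and miR-301 miRNAs, known for roles in endothelium, haematopoiesis and growth factor signalling, gave 2 falls and a rise after centring. miR-130a read 11.95, 12.14 and 12.31 in the 3-week livers and 10.13, 10.05 and 10.09 in the 7-week livers, a change of -2.04 as deposited (SE 0.16, adjusted p = 2.76e-06) and -0.92 after centring (SE 0.14, adjusted p = 0.00062). miR-301a read 7.62, 7.89 and 7.94 in the 3-week livers and 5.86, 5.12 and 5.11 in the 7-week livers, a change of -2.45 as deposited (SE 0.23, adjusted p = 9.84e-06) and -1.33 after centring (SE 0.20, adjusted p = 0.000626). Both fell with no overlap on either scale. The dim miR-130b, at 4.75, 4.72 and 4.49 in the 3-week livers and 5.49, 5.72 and 4.26 in the 7-week livers, overlapped as deposited and was higher after centring, with 0.50 as deposited (adjusted p = 0.283) and 1.62 after centring (adjusted p = 0.00352).

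The seeds of the miR-17, miR-130, miR-19 and miR-148 families all contain the letters GUGC, a feature singled out after the values were seen and given with no test. It was searched as GUGC within bases 2 to 8 of the mature strand only. It was present in 7 of the 16 matched probes that fell (43.8%), in 12 of the 98 matched probes (12.2%) and in 69 of the 1679 mature miRNAs of the RefSeq table (4.11%). Among the 17 matched probes higher after centring it occurred in 1, miR-130b. The 12 probes with the letters had a median centred change of -0.59 with 11 negative, and the 86 without them a median of 0.10 with 40 negative. Families share seeds, so these probes are not independent of each other. miR-152, of the miR-148 family, fell, with -1.56 as deposited (adjusted p = 2.50e-05) and -0.44 after centring (adjusted p = 0.0229), and lost the centred call without 3-week mouse 2 or 3 or 7-week mouse 1 or 2 (adjusted p 0.0657 to 0.0842). Its relatives miR-148a and miR-148b had centred changes of -0.24 and -0.23 that did not pass.

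In the miR-15 and miR-16 family, which restrains cyclins and the cell cycle, 4 of 5 probes were above the floor, all 4 were lower as deposited and 1 passed on both scales. miR-15b read 11.40, 11.23 and 11.55 in the 3-week livers and 9.79, 9.49 and 9.64 in the 7-week livers, a change of -1.75 as deposited (SE 0.13, adjusted p = 1.91e-06) and -0.63 after centring (SE 0.10, adjusted p = 0.000628). miR-16, which has a copy beside miR-15b, read 12.67, 12.76 and 12.97 in the 3-week livers and 11.89, 12.005 and 11.99 in the 7-week livers, with -0.84 as deposited (adjusted p = 0.00425) and 0.28 after centring (adjusted p = 0.194). The miR-16 probe would also read the copy beside miR-15a. Within each liver the log2 ratio of miR-15b to miR-16 was -1.26, -1.52 and -1.42 at 3 weeks and -2.10, -2.51 and -2.34 at 7 weeks, 1.89-fold lower without overlap, a pair chosen after the values were seen. miR-15a changed by -0.99 as deposited (adjusted p = 0.000652) and 0.13 after centring (adjusted p = 0.513) and miR-195 by -1.86 as deposited (adjusted p = 0.0097) and -0.74 after centring (adjusted p = 0.303). miR-497 had a floor value in 2 of the 3-week livers and read 4.19, 3.60 and 1.30 at 7 weeks, a deposited change that did not pass (adjusted p = 0.0714).

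**Figure D4:**
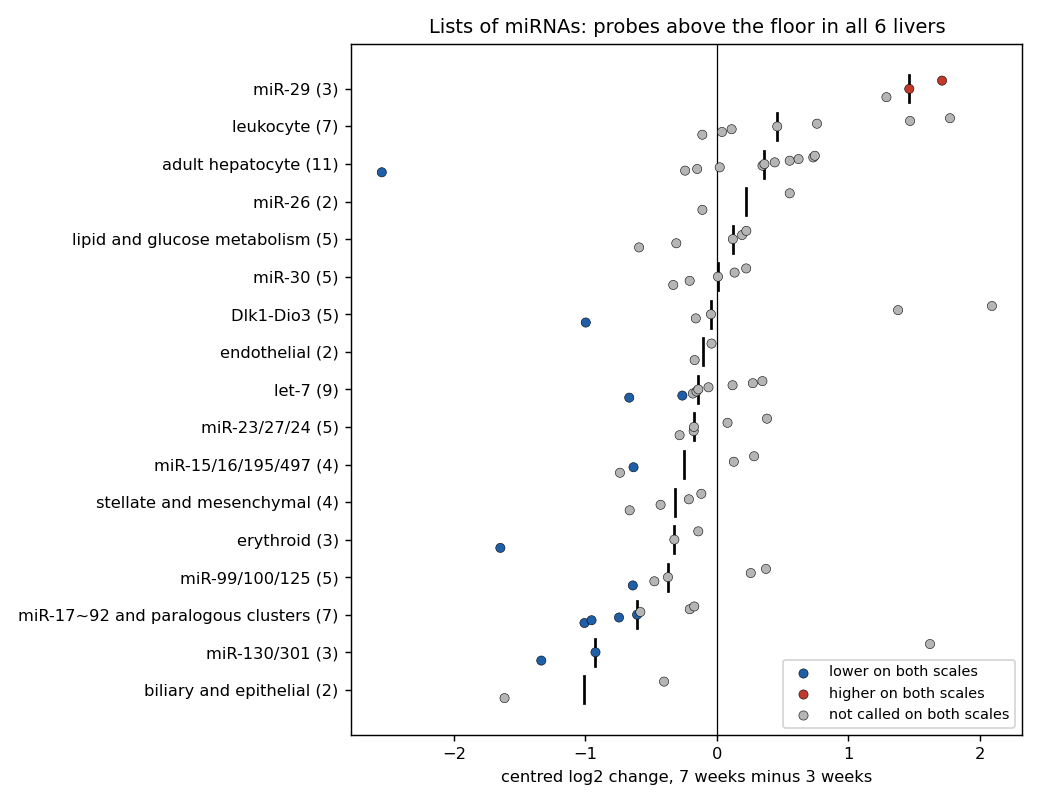
Centred log2 change (horizontal axis, 7 weeks minus 3 weeks) of the probes above the floor in all 6 livers, by list of miRNAs, with the number of probes in brackets. Points are probes, thick ticks are list medians and colours mark calls on both scales. Among lists of 2 or more such probes the miR-29 family has the highest median (1.46) and the biliary list the lowest (-1.01). The miR-17~92 group lies wholly below 0, as do the erythroid, endothelial, mesenchymal and biliary lists.

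let-7, the large family that marks differentiated cells and opposes growth, was lower as deposited in 8 of its 9 probes, with a median change of -1.26 as deposited and -0.14 after centring. let-7e and let-7i were lower on both scales. let-7e read 10.28, 10.28 and 10.58 in the 3-week livers and 8.55, 8.64 and 8.60 in the 7-week livers, a change of -1.78 as deposited (SE 0.11, adjusted p = 6.54e-07) and -0.67 after centring (SE 0.08, adjusted p = 0.000148). let-7i changed by -1.38 as deposited (adjusted p = 6.66e-07) and -0.26 after centring (adjusted p = 0.0401), a centred call lost in 7 of the 12 fits without a sample, among them those without mouse 1 or 2 of either age (adjusted p 0.0518 to 0.139). The other 7 had centred changes between -0.18 and 0.35 that did not pass, the highest being let-7c, with -0.77 as deposited (adjusted p = 0.0609) and 0.35 after centring (adjusted p = 0.427).

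let-7e lies in a cluster with miR-99b and miR-125a on chromosome 17, and let-7c in a paralogous cluster with miR-99a and miR-125b on chromosome 16. The 2 clusters hold related miRNAs, and their probes changed by different amounts. On chromosome 17 the centred changes were -0.64 for miR-99b (adjusted p = 0.0245), -0.67 for let-7e and -0.47 for miR-125a-5p (adjusted p = 0.0892). On chromosome 16 they were 0.37 for miR-99a (adjusted p = 0.0314), 0.35 for let-7c and 0.26 for miR-125b-5p (adjusted p = 0.439). let-7c and miR-125b have further copies elsewhere in the genome that these probes would also read.

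The 3 paralog ratios, chosen after the values were seen, do not depend on the scale. miR-99b to miR-99a went from -2.09, -2.11 and -1.66 to -2.80, -2.77 and -3.32, which is 2.02-fold lower. let-7e to let-7c went from -2.78, -2.31 and -2.32 to -3.47, -3.48 and -3.51, also 2.02-fold lower. miR-125a-5p to miR-125b-5p went from -0.36, -0.52 and -0.71 to -0.95, -1.62 and -1.22, 1.66-fold lower. In each pair all 7-week livers lay below all 3-week livers (exact two-sided permutation p = 0.1, the smallest possible). As deposited, 4 of the 5 measurable probes of the miR-99, miR-100 and miR-125 list were lower. The centred call of miR-99b was lost without mouse 1 or 3 of either age (adjusted p 0.0545 to 0.0878), and that of miR-99a without 3-week mouse 2 or 3 or 7-week mouse 3 (0.0678 to 0.101).

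Markers of other cells of the liver were measured in the same way. As deposited, the summed linear level ranged from 9643 to 11275 at 3 weeks and 2712 to 5271 at 7 weeks for the erythroid list, from 2758 to 3055 and 1748 to 1993 for the leukocyte list, from 25099 to 28415 and 10541 to 12080 for the endothelial list, from 3766 to 4814 and 1427 to 1712 for the mesenchymal list and from 612.7 to 1001 and 137.9 to 173 for the biliary list. All of these sums were lower at 7 weeks, as was that of the hepatocyte list (232068 to 263952 against 103360 to 118805), and the part of other cell types in the changes above was not tested. The erythroid probes, 3 of 3 above the floor, were all lower as deposited. miR-144, which with miR-451 is made in red cell precursors from 1 transcript, read 11.40, 11.25 and 11.35 in the 3-week livers and 8.95, 8.70 and 8.05 in the 7-week livers, a change of -2.77 as deposited (SE 0.26, adjusted p = 1.13e-05) and -1.65 after centring (SE 0.25, adjusted p = 0.00062). miR-451 read 13.03, 12.78 and 12.96 in the 3-week livers and 12.19, 11.58 and 11.23 in the 7-week livers, a change of -1.26 as deposited (SE 0.20, adjusted p = 0.000489) and -0.14 after centring (SE 0.19, adjusted p = 0.651). The groups of both were apart as deposited, and after centring those of miR-144 alone. miR-486 changed by -1.44 as deposited (adjusted p = 0.00422) and -0.32 after centring (adjusted p = 0.498). The log2 ratio of miR-144 to miR-451 was -1.63, -1.53 and -1.61 at 3 weeks and -3.24, -2.88 and -3.18 at 7 weeks, 2.84-fold lower. Over the whole series it was 0.18, 0.90 and 0.98 at e15.5 and -2.04, -1.88 and -2.19 at 2 weeks. The 7-week livers thus had the lowest ratio of the 4 ages, and the 3-week livers lay above those of 2 weeks.

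Of the 8 leukocyte probes, 7 had no floor value in the 6 livers. Of these, 3 were lower as deposited and 3 were higher after centring, with a median centred change of 0.46. The 3 were miR-155, miR-146a, which damps innate immune signalling, and miR-142-5p. miR-146a read 9.85, 9.67 and 9.90 in the 3-week livers and 9.50, 9.37 and 9.48 in the 7-week livers, with -0.36 as deposited (adjusted p = 0.0472) and 0.76 after centring (adjusted p = 0.00326), so its direction turns with the scale, and the deposited call was lost in 7 of the 12 fits without a sample. The 2 arms of the blood cell hairpin miR-142 parted. miR-142-5p read 5.27, 6.18 and 5.79 in the 3-week livers and 6.29, 6.58 and 6.33 in the 7-week livers and miR-142-3p 9.90, 9.98 and 10.06 in the 3-week livers and 8.93, 8.95 and 8.36 in the 7-week livers. Their log2 ratio went from -4.23 ± 0.41 to -2.35 ± 0.31 (SD, n = 3), 3.69-fold higher and without overlap, a pair chosen after the values were seen. miR-142-5p was a dim probe at 3 weeks, with a mean of 55.5 linear units. miR-223, of granulocytes and macrophages, changed by -1.08 as deposited (adjusted p = 2.75e-05) and 0.04 after centring (adjusted p = 0.829), miR-150, of mature lymphocytes, by -0.66 as deposited (adjusted p = 0.0748) and 0.46 after centring (adjusted p = 0.183), and miR-342-3p by -1.01 as deposited (adjusted p = 0.111) and 0.11 after centring (adjusted p = 0.83). miR-146b, the probe with floor values, was on the floor in 2 of the 3-week livers and read 3.32, 3.99 and 3.67 at 7 weeks.

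The endothelial miR-126-3p and miR-126-5p had deposited changes near that of the bright probes, with -1.29 as deposited (adjusted p = 2.16e-06) and -0.17 after centring (adjusted p = 0.14) for the former and -1.16 as deposited (adjusted p = 0.00543) and -0.04 after centring (adjusted p = 0.902) for the latter. In the stellate and mesenchymal list, 4 of 5 probes were above the floor, all 4 were lower as deposited and none passed after centring. These were miR-143 (-1.78 as deposited (adjusted p = 0.00052) and -0.66 after centring (adjusted p = 0.112)), miR-145 (-1.55 as deposited (adjusted p = 5.74e-05) and -0.43 after centring (adjusted p = 0.0767)), miR-199a-5p (-1.33 as deposited (adjusted p = 4.16e-05) and -0.21 after centring (adjusted p = 0.286)) and miR-199a-3p (-1.24 as deposited (adjusted p = 5.74e-05) and -0.12 after centring (adjusted p = 0.644)). miR-214 was on the floor in every 3-week liver and read 4.83, 5.47 and -9.97 at 7 weeks, where the last value is the floor. The muscle probes miR-133a, miR-206 and miR-499 were on the floor in all 6 livers. The pancreatic miR-216a was on the floor in all livers but 7-week mouse 2, where it read 3.07. Of the 5 neural probes, 4 were on the floor in every 3-week liver and 1 in every 7-week liver. Their summed linear level was 0, 2.88 and 0 at 3 weeks and 22.6, 64.7 and 5.02 at 7 weeks, higher in each 7-week liver. These 7-week sums rank in the order of the number of all probes above the floor, 226, 248 and 173. In the 3-week livers that number was 159 to 168, and the part of the floor in the neural sums was not tested. The neural miR-153 was higher as deposited (adjusted p = 0.0418) and did not pass on the scaled values (adjusted p = 0.139). It was on the floor in every 3-week liver and in 7-week mouse 3, and did not pass in a fit of the 6 livers alone (adjusted p = 0.161). The list's count of 1 higher probe as deposited became 0 in 9 of the 12 fits without a sample.

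The epithelial miR-200 family, which in liver marks bile duct cells, had no probe called on both scales, and 2 of the 5 probes of the list were lower as deposited. The 3 probes of its chromosome 4 cluster had lower values in every 7-week liver than in any 3-week liver. miR-429 read 7.42, 7.003 and 7.87 at 3 weeks and was on the floor in every 7-week liver. On linear values scaled by the bright probes, as log2(linear + 10), it was lower by -3.69 (adjusted p = 2.71e-07). miR-200b read 7.95, 8.01 and 8.47 in the 3-week livers and 6.57, 6.76 and 6.54 in the 7-week livers, with -1.52 as deposited (adjusted p = 8.70e-05) and -0.40 after centring (adjusted p = 0.174). miR-200a read 8.004, 7.80 and 8.46 in the 3-week livers and 5.61, 5.72 and 4.74 in the 7-week livers, and every 7-week liver was below every 3-week liver on either scale. Its change of -2.73 did not pass with all 12 samples (adjusted p = 0.528), and did in a fit of the 6 livers alone (adjusted p = 0.00271, and 0.00415 for the centred change of -1.61). Its values in 2 of the e15.5 livers were floor values, which widened the spread shared over the ages. Among the 130 probes, 16 had floor values at e15.5 or 2 weeks. With all 12 samples 2 of those 16 passed as deposited, and with the 6 livers 7 did, and after centring 1 and 6. Over all 130 the fit of the 6 livers called 98 as deposited (75.4%) and 53 after centring (40.8%). miR-200c and miR-141, of the other cluster, had floor values, and their changes did not pass as deposited.

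Imprinted loci, expressed from 1 parental allele and mostly active before and shortly after birth, include the second largest centred fall. miR-335-5p, encoded in the paternally expressed gene Mest, read 8.40, 8.42 and 8.39 in the 3-week livers and 5.66, 5.87 and 5.21 in the 7-week livers. The fall was -2.82 as deposited (SE 0.22, adjusted p = 2.20e-06) and -1.70 after centring (SE 0.20, adjusted p = 0.00012), with the ages far apart on both scales. Relative to miR-122 it was 2.94-fold lower, with log2 ratios of -9.004, -9.07 and -9.24 at 3 weeks and -10.47, -10.38 and -11.13 at 7 weeks. After centring it had changed by only -0.27 from 2 to 3 weeks (adjusted p = 0.563). Its other arm, miR-335-3p, had floor values at both ages. miR-675-3p, from the maternally expressed H19 transcript, read 3.01, 3.96 and 5.16 at 3 weeks and was on the floor in every 7-week liver. Its scaled change did not pass (adjusted p = 0.0859). Its other arm, miR-675-5p, was on the floor in every 3-week liver and read 4.40, 4.43 and the floor at 7 weeks, a scaled change that did not pass either (adjusted p = 0.158). miR-296-3p, also of this list, was lower on the scaled values, with a change of -1.69 (adjusted p = 0.00688). Its mean linear value went from 40.4 at 3 weeks to 1.25 at 7 weeks. Of the 7 probes of this list, 3 were lower and 2 higher as deposited, and the 2 were 0 in each fit without 1 sample other than 7-week mouse 3.

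The Dlk1-Dio3 locus on chromosome 12 holds a large group of miRNAs that are expressed from the maternal chromosome in embryo, placenta and brain. Of its 47 probes, 31 were on the floor in every 3-week liver and 24 in all 7-week livers, and 5 were above it in all 6. Of those 5, miR-434-3p fell, reading 6.22, 5.72 and 6.65 in the 3-week livers and 3.87, 4.72 and 3.67 in the 7-week livers, with -2.12 as deposited (SE 0.31, adjusted p = 0.000291) and -0.996 after centring (SE 0.26, adjusted p = 0.0174). That centred call was lost without 3-week mouse 1 or 3 or 7-week mouse 1 (adjusted p 0.0558 to 0.0708). miR-154 changed by -1.28 as deposited (adjusted p = 5.72e-06) and -0.16 after centring (adjusted p = 0.392) and miR-376a by -1.16 as deposited (adjusted p = 0.000481) and -0.04 after centring (adjusted p = 0.825). The dim miR-543 and miR-539 were higher after centring, at 1.38 and 2.09, and not as deposited (adjusted p = 0.529 and 0.14).

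Most of the locus was readable only through the floor. miR-136 read 8.33, 8.09 and 7.96 at 3 weeks, and at 7 weeks it was on the floor in mice 1 and 2 and read 1.30 in mouse 3, so that its mean linear value went from 281 to 0.821. miR-377 read 7.45, 7.57 and 7.73 at 3 weeks and was on the floor in 7-week mice 1 and 3, with 2.21 in mouse 2. miR-376c read 6.61, 6.12 and 6.06 at 3 weeks and was on the floor in every 7-week liver. At e15.5 these probes were brighter than at 3 weeks, with 10.18, 10.31 and 10.19 for miR-136, 10.27, 10.19 and 10.33 for miR-377 and 9.14, 9.29 and 9.18 for miR-376c. After centring, miR-136 was at 1.72, 1.75 and 1.73 at e15.5 and 0.66, 0.55 and 0.24 at 2 weeks. Its centred 3-week values were -1.52, -1.70 and -2.04. On the scaled log2(linear + 10) values the changes came to -4.18, -3.58 and -2.66 (adjusted p = 4.74e-08, 2.71e-07 and 3.59e-07). As deposited, 12 of the 47 probes were lower and 5 higher, to be read against 29.6% and 11.8% of all 355. The 5 were 3 without 7-week mouse 2 and 9 without 7-week mouse 3.

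Of the 225 probes with a floor value in any of the 6 livers, the scaled log2(linear + 10) values, a scale added after the data were seen, gave 17 lower and 18 higher at 7 weeks. Over all 355 probes this scale called 78 (22%), 36 lower (10.1%) and 42 higher (11.8%). Among the 17 lower, 9 were Dlk1-Dio3 probes: miR-136, miR-377, miR-376c, miR-329, miR-369-3p, miR-411, miR-382, miR-410 and miR-495. Among the 18 higher there was 1, miR-541. These counts are to be read against the 47 Dlk1-Dio3 probes, all but 5 of which are among the 225. Each of the 17 was above the floor in all 3-week livers. Leaving out any 1 of the 6 livers, 15 or 16 of the 17 lower probes were called again. The higher probes held less well: 12 of the 18 were called again without 3-week mouse 1 or 2 or 7-week mouse 1 or 2, 14 without 3-week mouse 3, and 16, among 31 called, without 7-week mouse 3.

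The lower probes outside the locus had varied roles. miR-450a-5p, from the X-linked miR-322 and miR-503 cluster, read 7.17, 6.67 and 6.84 at 3 weeks and 3.18, -9.97 and 3.81 at 7 weeks, where -9.97 is the floor. Its change on this scale was -2.23 (adjusted p = 0.00194). miR-322 of the same cluster, above the floor in all 6, changed by -1.47 as deposited (adjusted p = 0.00136) and -0.35 after centring (adjusted p = 0.385), and miR-542-5p was on the floor throughout. miR-210, induced by hypoxia, read 4.25, 5.70 and 6.04 at 3 weeks and was on the floor in every 7-week liver. miR-221, which favours hepatocyte proliferation by acting on the inhibitor p27, read 1.74, 4.55 and 4.36 at 3 weeks and was on the floor in every 7-week liver, with a scaled change of -0.98 (adjusted p = 0.0353). Its mean at 3 weeks was only 15.8 linear units. miR-669f read 5.88, 5.43 and 5.46 at 3 weeks and was on the floor at 7 weeks.

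The brightest of the higher probes was miR-762, at -2.32, the floor and 6.02 at 3 weeks and 7.85, 8.59 and 7.48 at 7 weeks, a scaled change of 4.48 (adjusted p = 0.00137). miR-714 was on the floor in 2 of the 3-week livers and read 4.61 in the third, against 7.20, 7.50 and 6.26 at 7 weeks. For both, the 3-week livers disagreed among themselves by far more than the 7-week livers did. miR-125a-3p, the second brightest, read 5.44, the floor and 6.69 at 3 weeks and 6.95, 7.60 and 6.50 at 7 weeks, and its ages overlapped. The remaining higher probes averaged at most 53.1 linear units at 7 weeks. In 20 probes all 3-week livers were on the floor and all 7-week livers above it, with 7-week means of 5.62 to 28.5 linear units. The 5 brightest were miR-2139, miR-455, miR-331-3p, miR-764-5p and miR-1942, and of the 20, 9 were called on the scaled values. The reverse held for 16 probes, with 3-week means of 4.22 to 178 units, the brightest being miR-429, miR-376c, miR-669f, miR-210 and miR-205, and 11 of the 16 were called.

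**Figure D5:**
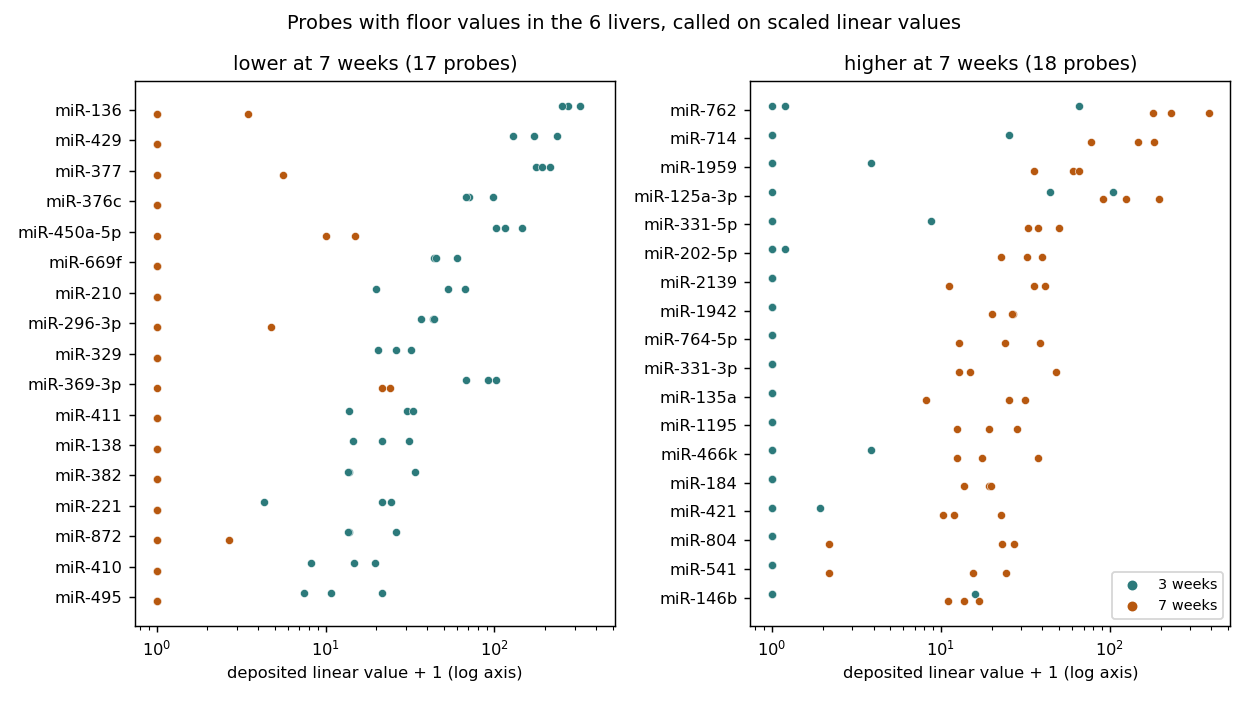
Deposited linear value plus 1 (log axis) in each 3-week and 7-week liver of the 35 probes with floor values that were called on the scaled linear values, sorted by size of the change. Points are livers, and a point at 1 is the floor; the probes lower at 7 weeks reach 281 linear units on average at 3 weeks (miR-136), while 14 of the 18 higher ones average under 40 at 7 weeks.

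In the remaining families few centred changes passed. All 5 miR-30 probes, a family abundant in differentiated epithelia, were above the floor, 4 were lower as deposited and none passed after centring, with centred changes from -0.33 (miR-30a, adjusted p = 0.0503) to 0.22 (miR-30e). miR-26a and miR-26b, which act against growth of liver tumour cells, had centred changes of 0.56 and -0.11 that did not pass. In the miR-23, miR-27 and miR-24 clusters 4 of 5 were lower as deposited, and after centring 1 was higher, miR-23a, with -0.74 as deposited (adjusted p = 0.000363) and 0.38 after centring (adjusted p = 0.0287), a centred call lost in 5 of the 12 fits without a sample (adjusted p up to 0.0814). Its cluster neighbour miR-27a changed by -1.29 as deposited (adjusted p = 1.71e-06) and -0.17 after centring (adjusted p = 0.203). miR-181a, the 1 probe of its family above the floor in all 6 livers, changed by -1.27 as deposited (adjusted p = 2.50e-05) and -0.15 after centring (adjusted p = 0.403).

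Of the 6 probes listed for lipid and glucose metabolism, 5 were above the floor, 4 were lower as deposited and none passed after centring. The 4 became 2 without 7-week mouse 1. miR-33, which sits in an intron of the sterol regulator gene Srebf2, changed by -0.997 as deposited (adjusted p = 0.134) and 0.12 after centring (adjusted p = 0.835). miR-103 and miR-107, which bear on insulin sensitivity, had centred changes of 0.23 (adjusted p = 0.437) and -0.59 (adjusted p = 0.203). For miR-378, from an intron of Ppargc1b, the change was -0.93 as deposited (adjusted p = 0.0493) and 0.19 after centring (adjusted p = 0.73), for miR-185 it was -1.43 as deposited (adjusted p = 0.0124) and -0.31 after centring (adjusted p = 0.576), and miR-370 was on the floor in all 6 livers. The deposited call of miR-378 was lost in 9 of the 12 fits without a sample and that of miR-185 in 1.

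Finally, 2 of the largest falls belonged to none of the lists. miR-532-5p, from an X-linked cluster, read 6.65, 6.51 and 7.14 in the 3-week livers and 4.46, 4.23 and 4.44 in the 7-week livers, a change of -2.39 as deposited (SE 0.23, adjusted p = 1.10e-05) and -1.27 after centring (SE 0.19, adjusted p = 0.000582). miR-340-5p read 9.45, 9.31 and 9.48 in the 3-week livers and 7.25, 7.47 and 7.57 in the 7-week livers, a change of -1.98 as deposited (SE 0.14, adjusted p = 1.65e-06) and -0.87 after centring (SE 0.13, adjusted p = 0.000759). Both had every 7-week liver below every 3-week liver on either scale. Among the 6 brightest probes at 7 weeks were miR-122, miR-22, miR-148a, miR-126-3p and miR-21, and the second brightest was the probe named miR-720, a sequence since assigned to a transfer RNA. It changed by -0.60 as deposited (adjusted p = 0.0236) and 0.52 after centring (adjusted p = 0.0577), and the deposited call was lost in 4 of the 12 fits without a sample.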

How the data were processed

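The series matrix held 1 table of log2 values for 12 samples, deposited by the authors. Its unit, log2, was read from the values. Partek 6.6 is named in the submitters' processing notes, and background subtraction, scaling between samples and raw counts are not given in the sources used here. The lowest value, -9.97, occurs in every sample and was taken as the floor. RNA was extracted from each liver with Trizol, per the labels' protocols. The 355 mouse probes were fitted in limma 3.58.1 (R 4.3.3) with 1 mean per age over all 12 samples and a trended prior, and p-values were adjusted by Benjamini-Hochberg with a threshold of 0.05. Centred values are the log2 values minus each sample's mean over its 100 brightest probes, ranked over all samples. Centring moves floor values too, so centred calls were read only for the 130 probes above the floor in all 6 livers. Probes with floor values were read on linear values divided by the same scale, as log2(linear + 10), where a change understates that of a dim probe. Within-liver ratios were tested by exact two-sided permutation (scipy 1.17.1). Simulated data of 355 probes with 100 changed were put through the 7-week against 3-week fit. Of changes of 1 log2 unit, it called 90.3% above 64 linear units and 10.7% at or below it. Of changes of 2 units it called 100% and 59.8%, and of unchanged probes 0.236% and 0.998%. In the deposited data 225 of the 355 probes had a floor value in the 6 livers, and a common shift separated the ages. Whether these rates hold there was not tested. The probes named are miR-122, the 10 largest falls and up to 10 rises on both scales, the 10 largest centred rises, the 5 brightest probes at the floor in all livers of 1 age only, the 6 brightest at 7 weeks, members of lists (all of up to 6, otherwise the 4 with the largest centred change) and the ratio pairs. Other probes were named after their values were seen. The members, the 25 lists and the rules were chosen with earlier results of these data known. Mouse numbers showed no pairing of the ages, in a check that cannot exclude one. The deviations of same-numbered mice from their age means correlated at 0.11, 0.00013 and -0.07 over 114 probes. Those of differently numbered mice lay between -0.30 and 0.29, too wide a range to tell with 3 livers per age. Leaving out samples, other scalings, filters and a replicate block were tried.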

Additional observations from a re-analysis of the deposited data

How the results depend on the processing

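The scale between the ages, the floor values and the small number of livers limit these counts. The count of 147 called probes was 69 under quantile normalisation, 97 when centred on the median of the probes above the floor in all 12 samples, 89 when centred on miR-122, 89 with only the probes above the floor in all 6 livers, and 78 on scaled log2(linear + 10) values, the last chosen after seeing the data. Without 1 sample it was 113 to 170. The 42 higher probes became 63 centred on the 100 brightest probes, 61 centred on the median or on miR-122, 18 with log2(linear + 10), 19 in the upper 50% of probes, 3 with only the probes above the floor in all 6 livers, 27 without the trend and 25 with only the 6 livers, and 22 to 69 without 1 sample. The highest of these was without 7-week mouse 3 and the lowest without 3-week mouse 1. The 105 lower probes became 36 under centring on the 100 brightest probes, quantile normalisation, centring on the median and scaled log2(linear + 10) values, and 28 centred on miR-122, and were 88 to 107 without 1 sample. Of the calls on both scales, the 3 rises were 0 without the trend and 0 to 3 without 1 sample (0 without 3-week mouse 1 or 7-week mouse 1, and 1 without 3-week or 7-week mouse 3), and the 17 falls were 13 to 22. The change of miR-122 was -0.15 centred on the 100 brightest probes (adjusted p = 0.557), 0 under quantile normalisation, where it is the top rank in each sample, -0.20 centred on the median (adjusted p = 0.536), -0.15 on scaled log2(linear + 10) values (adjusted p = 0.727), and -1.32 to -1.21 without 1 sample. With mouse number as a replicate block, 129 probes were called, 32 higher and 97 lower, with 3 rises and 16 falls on both scales and -1.27 for miR-122 (adjusted p = 0.000719). The labels do not say whether the numbers pair the samples.

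Several probes lower as deposited turned positive under another scaling. In the order centred on the 100 brightest probes, quantile, centred on the median, centred on miR-122 and scaled log2(linear + 10), the changes were 0.75, 0.63, 0.69, 0.90 and 0.75 for miR-22, 0.44, 0.17, 0.39, 0.59 and 0.44 for miR-192, 0.76, 0.63, 0.71, 0.91 and 0.75 for miR-146a, 0.37, 0.40, 0.32, 0.52 and 0.37 for miR-99a, and 0.26, 0.20, 0.21, 0.41 and 0.26 for miR-125b-5p. Without quantile they were 0.28, 0.23, 0.43 and 0.28 for miR-16. miR-223 gave 0.040 centred on the 100 brightest probes, 0.025 under quantile, 0.19 centred on miR-122 and 0.038 scaled, and miR-194 gave 0.0226, 0.17 centred on miR-122 and 0.0225 scaled. miR-126-5p gave 0.17 under quantile and 0.11 centred on miR-122. Centred on miR-122, miR-142-3p was at 0.0393, miR-451 at 0.0085 and miR-199a-3p at 0.0317.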
